A study of Mus musculus with 3 samples.

Results

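The CCR4-NOT deadenylase subunits were examined as a set of 10 genes, namely Cnot1, Cnot2, Cnot3, Cnot4, Cnot6, Cnot6l, Cnot7, Cnot8, Cnot10 and Cnot11. A gene counted as measured when a probe set of the array carried its symbol and no other, and 8 of the 10 met that rule, out of 22180 genes measured in all. Cnot1 and Cnot3 did not, because the 3 probe sets that carry their symbols also carry a second one. The data are 3 expression arrays of 1 group, the titles numbering the arrays 1 to 3. Each held biotin-labelled total RNA from neurospheres, which are floating colonies of neural precursors, derived from the V-SVZ (ventricular-subventricular zone), a region along the lateral ventricles that holds precursors after birth. The mice were CD1, genotype WT, and aged P8 (postnatal day 8) by their labels, or day 7 or 8 by the growth protocol. Plating was at 10 cells/ul, and the cultures grew for 7 days in medium with B27, 10 ng/ml FGF, 20 ng/ml EGF and heparin. Pups were cultured separately, but the labels do not say whether an array stands for a single pup, so the spread between arrays may be technical.

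CCR4-NOT is the main cytoplasmic deadenylase, the machine that shortens the poly(A) tail at the 3′ end of messenger RNA and so starts translational repression and decay. Cnot1 is the scaffold on which the other subunits assemble. A pair of nuclease subunits removes the adenosines, one taken from Cnot6 or Cnot6l and one from Cnot7 or Cnot8. The complex is brought to its targets by RNA-binding proteins and by the microRNA machinery, and its scaffold contacts Ddx6, the helicase that also binds 4E-T, the eIF4E-binding repressor after which the series is named.

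Promoter windows are shown for Cnot8 and Cnot10, because they show a CG-poor and a CG-rich start of the same gene and repeated matches to 1 motif in another, features taken up after the signals. They come from RefSeq on build GRCm38.p6, run 5′ to 3′ along the gene's strand and cover the 250 bases before an annotated start. Capitals mark matches to 1 of 5 short motifs, read on both strands. Those motifs are the GC box GGGCGG, the ETS core CCGGAAG, the CCAAT box CCAAT, the NRF1 core TGCGCA and the TATA box TATAAA. The GC box and the third ETS core of Cnot10 overlap at their edge.
Cnot8, first start, chr11:58092544-58092793, plus strand: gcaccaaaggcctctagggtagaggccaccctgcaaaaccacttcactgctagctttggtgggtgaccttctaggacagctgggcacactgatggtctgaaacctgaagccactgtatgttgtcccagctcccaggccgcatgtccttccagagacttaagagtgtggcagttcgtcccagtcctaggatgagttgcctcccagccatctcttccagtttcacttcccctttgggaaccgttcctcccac
Cnot8, second start, chr11:58103720-58103969, plus strand: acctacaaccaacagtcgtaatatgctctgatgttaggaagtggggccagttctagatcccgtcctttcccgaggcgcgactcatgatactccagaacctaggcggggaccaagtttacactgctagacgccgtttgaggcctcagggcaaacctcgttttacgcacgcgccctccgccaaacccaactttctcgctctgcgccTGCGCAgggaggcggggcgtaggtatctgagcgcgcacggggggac
Cnot10, chr9:114640201-114640450, minus strand: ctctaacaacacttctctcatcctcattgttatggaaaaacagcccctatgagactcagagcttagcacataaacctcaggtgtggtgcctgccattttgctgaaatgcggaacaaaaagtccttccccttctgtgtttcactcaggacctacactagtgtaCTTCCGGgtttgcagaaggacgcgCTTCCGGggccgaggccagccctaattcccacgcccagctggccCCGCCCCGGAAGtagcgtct

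All 8 measured genes of the set were detected in the neurospheres. With no second group, the signal of a gene was compared with a level that stands for unspecific binding on that array. The level was the 95th percentile over the 1400 probe sets of receptors used in smell, of the olfactory and vomeronasal kinds. This reference level was 5.63, 5.53 and 5.71 on the log2 scale on arrays 1, 2 and 3. A gene was called above it when limma's one-sided test on the log2 margin gave an adjusted p under 0.05 over all genes. That call was made for 8 of 8 CCR4-NOT genes, against 59.1% of all 22180 genes. Their median margin was 3.82 log2 units, with a range of 1.82 to 5.95, and the median of all genes was 0.76. Signals of different probe sets depend on how well their probes bind, so they give no order of transcript abundance between subunits. The arrays hold RNA of whole cultures, in which fewer cells expressing a gene and less RNA per cell cannot be told apart.

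**Figure D1:**
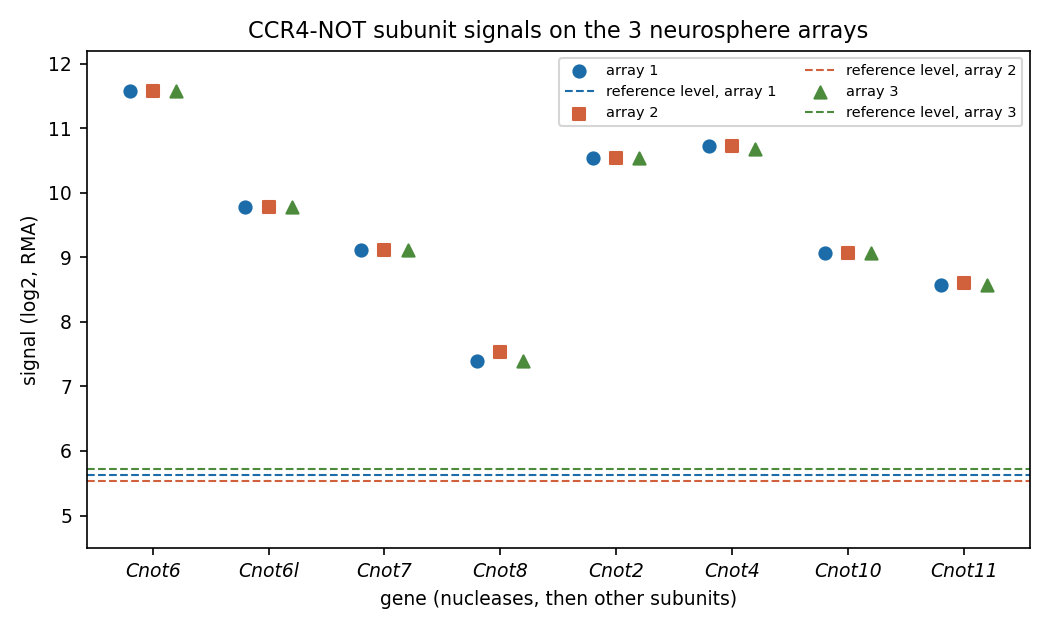
Signal (log2, RMA) of the 8 measured CCR4-NOT genes on array 1 (circles), array 2 (squares) and array 3 (triangles), with each array's reference level as a dashed line of the same colour. Every point lies above the 3 reference levels, and Cnot8 lies closest to them with 7.40, 7.53 and 7.40.

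Transcripts of both members of each nuclease pair were detected. Cnot6 and Cnot6l encode nucleases of the endonuclease-exonuclease-phosphatase family. Cnot6 had a signal of 11.57 on each of the 3 arrays, a mean margin of 5.95 with a limma interval of 5.82 to 6.08 (95%). All intervals given here rest on the spread shared by genes of like signal, not on each gene's own spread. Cnot6l had 9.78 on each of the 3 arrays, with a margin of 4.15 (interval 3.98 to 4.33). For these genes the deposited values of the 3 arrays were equal, so their margins varied only through the reference levels (SD 0.091, n = 3).

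Cnot7 and Cnot8 encode the other kind of nuclease, of the DEDD family named for its catalytic residues, and this enzyme is also the docking point of the BTG/TOB adaptors. Cnot7 had 9.11 on each array and a margin of 3.48 (interval 3.30 to 3.66). Cnot8 had 7.40, 7.53 and 7.40 on arrays 1, 2 and 3 (mean 7.44 ± 0.074, SD, n = 3). Its signal was highest on array 2, where the reference level was lowest, and its margins were 1.77, 2.00 and 1.69. The mean margin of Cnot8 was 1.82 (interval 1.64 to 2.00), the smallest of the set, and it still exceeded 1 log2 unit by limma's test against that margin.

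Transcripts of the non-catalytic subunits were detected as well. Cnot2, which with Cnot3 forms the NOT module at the end of the scaffold, had 10.54 on each array and a margin of 4.92 (interval 4.76 to 5.07). Cnot4, a RING-type E3 ubiquitin ligase that in mammals is only loosely held by the complex, had 10.73, 10.73 and 10.68 (mean 10.71 ± 0.029). Its margin was 5.09 (interval 4.93 to 5.24), and array 3 was the lower one. Cnot10 and Cnot11 form a module at the other end of the scaffold. Cnot10 had 9.06 on each array and a margin of 3.44 (interval 3.25 to 3.62). Cnot11 had 8.57, 8.61 and 8.57 (mean 8.58 ± 0.025) and a margin of 2.96 (interval 2.77 to 3.14), with array 2 the higher one.

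The 3 probe sets that carry Cnot1 or Cnot3 beside a second symbol were given no gene. The second symbol is Gm6158 on both probe sets with Cnot1, and the microRNA gene Mir3572 on the one with Cnot3. Signals of these 3 probe sets ranged from 8.46 to 11.26 over the arrays, above the reference level on each. They do not show which of the symbols they measured.

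**Figure D2:**
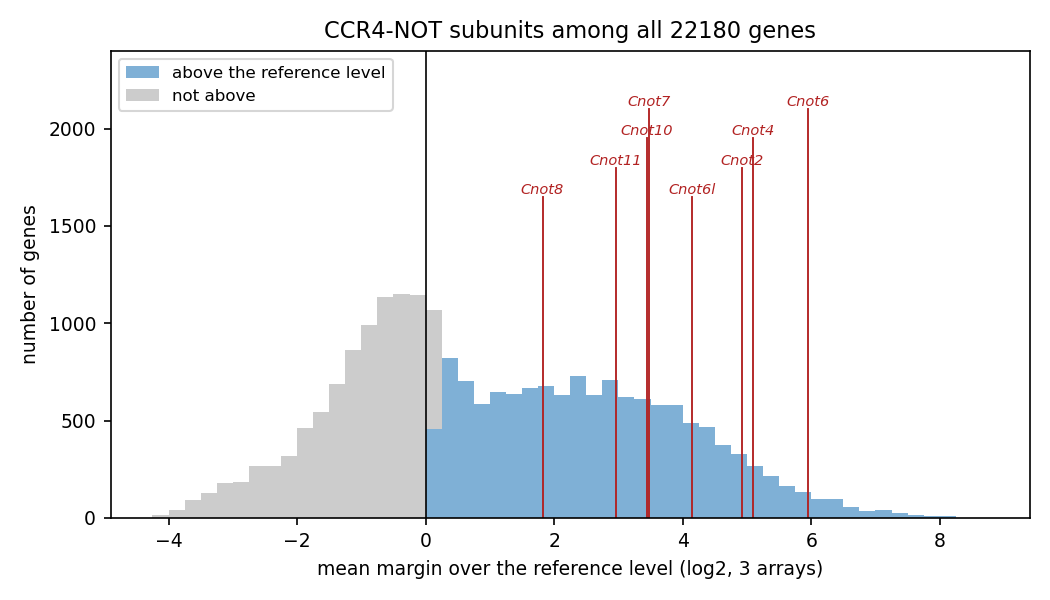
Number of genes (y axis) by mean margin over the reference level in log2 units (x axis) for all 22180 genes, called above (blue) or not (grey), with a red line for each measured CCR4-NOT gene. The 8 lines lie between 1.82 and 5.95, in the part of the distribution where genes were called above.

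The calls were also made under stricter rules. A margin over 1 log2 unit was called for 8 of 8 CCR4-NOT genes and for 45.5% of all genes. The 99th percentile of the receptors, at 6.42, 6.09 and 6.69, was exceeded by 8 of 8, against 44.9% of all genes, and Cnot8 then had a margin of 1.04. In the fit behind the first call, all genes of like signal shared 1 spread. With each gene's own spread in its place, 8 of 8 CCR4-NOT genes and 57.0% of all genes were called. In that fit the adjusted p was 0.00306 for Cnot8, 0.00101 for Cnot11 and 8.09e-04 for each of the other 6. For Cnot2, Cnot6, Cnot6l, Cnot7 and Cnot10 the spread came only from the reference levels, because their signals were equal on all 3 arrays. The signal of every measured CCR4-NOT gene exceeded the reference level on all 3 arrays, as did that of 59.6% of all genes.

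Deposited values of the set differed little between the arrays. The deposited values of Cnot2, Cnot6, Cnot6l, Cnot7 and Cnot10 were equal on all 3 arrays, which is 5 of 8 genes (62.5%), against 37.2% of all genes above the reference level. Where the equal values come from was not tested, and an SD of 0 describes the deposited values only. The widest range in the set was 0.13 log2 units, for Cnot8, followed by 0.050 for Cnot4 and 0.043 for Cnot11. The median SD was 0 for the set and 0.017 for all genes above. Such equality was not particular to the set. Among the lists around the complex taken up below, the share of genes equal on all 3 arrays ran from 16.7% to 100%. Recruiting RNA-binding proteins had 69.2%, also with a median SD of 0.

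Where CCR4-NOT genes differed between arrays, they did so in the directions most frequent among detected genes. On array 2 against array 1, Cnot8 and Cnot11 were higher (2 of 8, 25.0%) and none was lower, while 36.2% of all genes above were higher and 9.89% lower. On array 3 against array 2, Cnot4, Cnot8 and Cnot11 were lower (3 of 8, 37.5%), as were 48.9% of all genes above. On array 3 against array 1, Cnot4 alone was lower (12.5%), against 34.4%. Whether any gene varied more than genes of like signal could not be settled. Limma's variance ratio called 0% of all genes and 0 of the 8, also at an unadjusted p under 0.05. The prior of that fit had 0.299 degrees of freedom, and the cause of this was not tested.

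**Figure D3:**
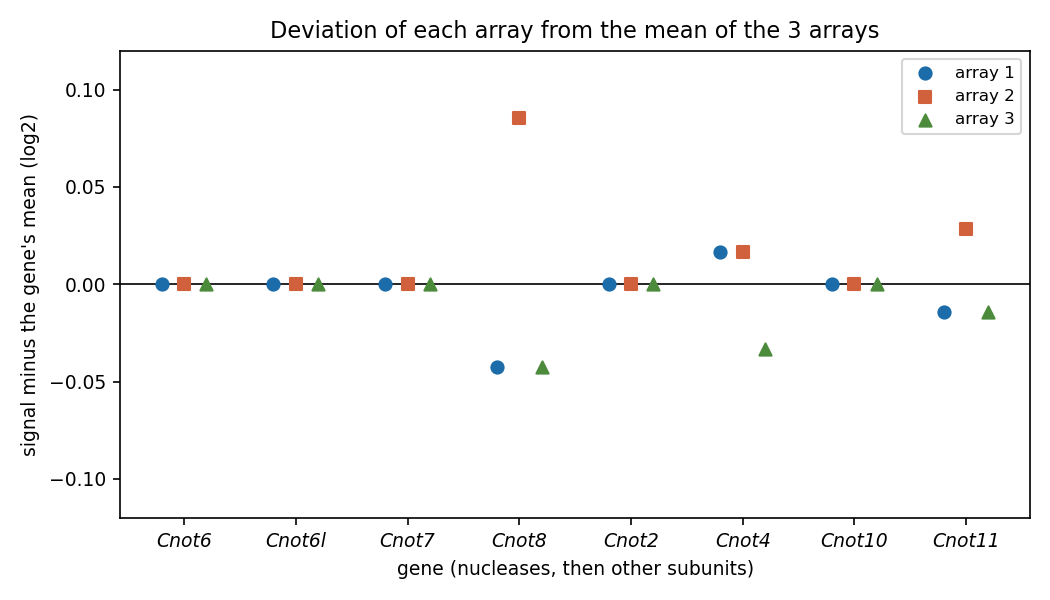
Signal of each array minus the gene's mean over the 3 arrays (log2) for the 8 measured CCR4-NOT genes, with array 1 as circles, array 2 as squares and array 3 as triangles. Points of 5 genes lie at 0, and the widest range, 0.13, is that of Cnot8, with array 2 highest.

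The remaining genes around the complex were compared as lists, each beside the 59.1% of all genes. Of 2 further CCR4-NOT proteins outside the set, Cnot9, the subunit that binds the microRNA effector proteins of the TNRC6 family, had 10.47 on each array, and Tnks1bp1, a partner of the complex, had 8.12 on each array. Both were above. Of 8 measured genes listed as deadenylases outside CCR4-NOT, 7 were above (87.5%). Among them were Pan2 (9.56) and Pan3 (9.43 ± 0.040), the catalytic and the adaptor subunit of the deadenylase that trims long tails, the poly(A)-specific ribonuclease gene Parn (9.45 ± 0.018) and Noct (7.50). Pnldc1, a PARN-like nuclease known for trimming germline piRNAs, had 5.28, 5.52 and 5.28 and was not above.

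Genes of proteins that bring the complex to messages were above the reference level in most cases. Of 5 measured BTG/TOB adaptors, which link Cnot7 or Cnot8 to RNA-binding proteins, 4 were above. They were Tob1 (8.95 ± 0.074), Tob2 (7.09 ± 0.13), Btg1 (8.91 ± 0.026) and Btg2 (10.33 on each array). Btg4, which acts with the complex in the clearance of maternal RNA in the egg, had 4.43 on each array and was not above. Of 13 measured recruiting RNA-binding proteins, 12 were above (92.3%), including the AU-rich element binders Zfp36 (7.54), Zfp36l1 (10.52) and Zfp36l2 (10.64 ± 0.019) and the Pumilio protein gene Pum2 (10.06). Nanos2, a germ cell factor, had 5.54, 5.39 and 5.58 and was not above.

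Of 12 genes of 4E-T, decapping and 5′ decay, 11 were above (91.7%). Eif4enif1, which encodes 4E-T, had 8.82, 8.89 and 8.72, and the genes of its partners Ddx6 and Lsm14a averaged 11.36 and 9.29 ± 0.060. Lsm14b had 8.98 ± 0.084. Patl2, an oocyte relative of the decapping activator gene Patl1, had 5.67, 5.38 and 5.74 and was not above, although arrays 1 and 3 lay over their reference levels.

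Genes whose products bind or extend the tail were counted in the same way. Of 11 poly(A)-binding proteins and their interactors, 7 were above (63.6%), near the share of all genes. Pabpc1, the main cytoplasmic poly(A)-binding protein gene, had 7.79 ± 0.011, Pabpc4 had 6.27, Pabpc5 had 6.88 and the nuclear Pabpn1 had 10.38 ± 0.023. Those not above were Pabpc6 (4.46 ± 0.011), Pabpc1l (5.30), Pabpc2 (4.53 ± 0.031) and Pabpn1l (4.87 ± 0.13). Of 14 poly(A) and terminal nucleotidyl transferases, 11 were above (78.6%), among them the canonical poly(A) polymerase genes Papola (10.53) and Papolg (9.60 ± 0.079), and Tent2 (10.06 ± 0.087) and Tent4a (9.09 ± 0.030), whose products extend tails outside the canonical pathway. Papolb (5.31), a testis polymerase gene, Tent5c (5.75 ± 0.065) and Tent5d (2.54) were not above. Tent5c lay over the reference level on all 3 arrays, by 0.15, 0.14 and 0.077, and with its own spread it was called above (limma adjusted p = 0.0293).

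**Figure D4:**
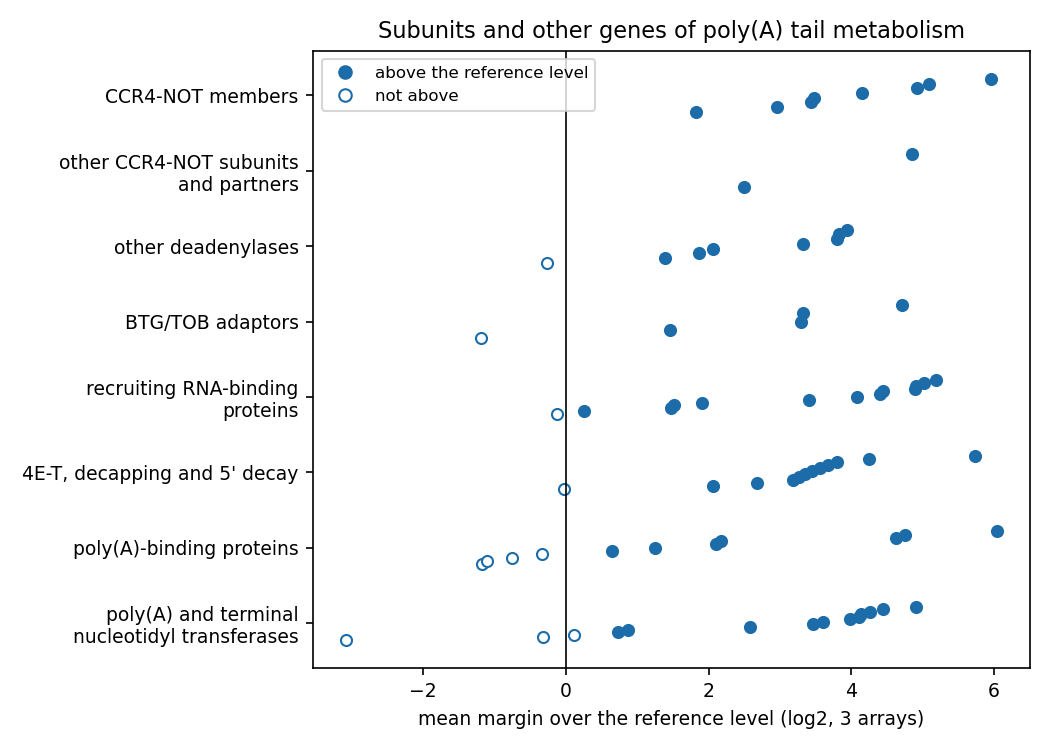
Mean margin over the reference level in log2 units (x axis) of each measured gene in 8 lists (rows), filled when called above and open when not. All 8 CCR4-NOT genes are filled, while 4 of 11 poly(A)-binding protein genes and 3 of 14 transferase genes are open.

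Most promoter windows of the set were rich in CG dinucleotides, as were those of detected genes in general. RefSeq windows of 300 bases, from 250 before to 50 after an annotated start, were found for 7 of the 8 measured genes and gave 13 windows, some of them overlapping. No window was listed for Cnot7. The 13 windows held a median of 30 CG dinucleotides and a GC content of 64.3%. The windows of all genes above the reference level held a median of 20 and a GC content of 60.7%, and those of genes not above held 4 and 48.7%. Values within the set ran from 3 CG dinucleotides, in the first Cnot8 window shown above and in 1 of 2 Cnot2 windows, to 49 in a Cnot6l window. The other Cnot2 window held 11 and the only Cnot10 window 14, also below the median of genes above.

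A GC box stood in 10 of 13 windows of the set (76.9%), against 35.7% of all 32851 windows in the table and 61.8% of those of genes above. By gene it was 7 of 7, against 68.5% of genes above, but 3 of the 7 had more than 1 window (42.9%), as did 19.8% of genes above. An ETS core stood in 3 of 13 windows (23.1%), against 8.86% of all windows and 16.0% of those of genes above. Counted by gene, it was 3 of 7 (42.9%), against 18.7% of genes above. The Cnot10 window held 3 matches, and those of Cnot6l and Cnot11 held 1 each. The NRF1 core stood in 2 of 13 windows (15.4%), 1 each for Cnot4 and Cnot8, against 7.76% of all windows and 13.2% of those of genes above. Counted by gene, it was 2 of 7 (28.6%), against 15.6% of genes above. The CCAAT box stood in 1 of 13, that of Cnot6 (7.69%), against 37.4% of all windows and 37.3% of those of genes above. By gene it was 1 of 7 (14.3%), against 42.5% of genes above. The TATA box stood in 0 of 13, against 13.6% of all windows and 7.31% of those of genes above. The window of Cnot3, left out of these counts because the gene was not measured, held 4 CCAAT boxes and 1 GC box. All of the counts are descriptions of 7 genes. The GC box, the ETS core and the NRF1 core contain CG themselves, and a match is not a binding site.

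The labelled cell type was checked against marker lists. Of precursor and glial lineage markers 7 of 7 measured genes were above, with means between 8.50 and 13.73, and of neuroblast markers 4 of 4. Markers of other cells were above in 3 of 8 cases for microglia, 1 of 8 for endothelium (Kdr), 3 of 6 for ependyma and 0 of 3 for red blood cells. The share of all genes was 59.1%. The microglial genes above were Cx3cr1, P2ry12 and C1qa. With each gene's own spread, P2ry12 and the ependymal gene Dynlrb2 were not called, which left 2 of 8 and 2 of 6. The highest mean among the microglial genes was 6.66 and among the endothelial genes 6.84 (Kdr), while the ependymal gene Foxj1 had 7.86. At the 99th percentile of the receptors 0 of 8 microglial, 0 of 8 endothelial and 1 of 6 ependymal genes were called above, against 44.9% of all genes. The means of Kdr and Cx3cr1 still lay over that level, by 0.43 and 0.25 log2 units. The part of any 1 cell type in the CCR4-NOT signals was not tested.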

How the data were processed

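Total RNA from neurosphere cultures of 1 group was measured on 3 arrays. The values the authors deposited are log2 signals of 41345 probe sets. Per the submitters' processing notes they come from RMA, whose version and options are not given in the sources used here. RMA adjusts the arrays to a common distribution, so a shift of all genes would not show. Probe sets were named from the platform's annotation: 23521 carried 1 symbol, 1814 several and 16010 none. Only those with 1 symbol were named, which left 22180 genes, and of several probe sets the highest mean was used (each CCR4-NOT gene had 1).

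Margins over the reference level were tested with limma 3.58.1 in R 4.3.3 (intercept, eBayes with intensity trend, one-sided, Benjamini-Hochberg). The members and lists were chosen with earlier results of these data known. All 10 genes of the set were to be named and, of each other list, those not above (up to 5) and the first 4 above in the order written. The steps were tested on simulated data, which lacked the equal values seen in the deposited data. Alternatives changed the reference, the probe set, the scaling and the model, and left out each array in turn. For arrays, their number limits the precision. Matplotlib 3.10.9 drew the figures.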

Additional observations from a re-analysis of the deposited data

How the results depend on the processing

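All 8 measured CCR4-NOT genes were above the reference level under each of 14 alternatives, and none changed direction. Their margins were smallest with a reference made of bitter taste receptors, defensins and keratin-associated proteins (142 probe sets), from 1.01 for Cnot8 to 5.14 for Cnot6, and largest with the 90th percentile, from 2.18 to 6.31. Alternatives in choosing among a gene's probe sets could not move these margins, as each measured gene of the set had 1 probe set. The count for all genes lay between 9658 and 14790, and between 12503 and 13022 when 1 array was left out. An alternative added after seeing the data admitted probe sets with several symbols. The call was then made for 10 of 10 genes of the set, against 60.2% of 23981 genes. For Cnot1 and Cnot3 it rests on probe sets that may have measured the second symbol. Each list of poly(A) tail genes stayed within 1.5 times its count. The marker counts of other cells did not: with the 90th percentile they were 5 of 8 for microglia, 3 of 8 for endothelium, 6 of 6 for ependyma and 2 of 3 for red blood cells. With that percentile, 66.7% of all genes were called. The variance ratio made no call under any of its 7 alternatives. After quantile normalization was applied again, 1240 genes (5.59%) had an unadjusted p under 0.05. No paired analysis was possible because there is 1 group. Signals near the reference level are limited by the unspecific signal, and within the set Cnot8 lay closest to that level.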

Other observations

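Among the genes that extend tails, Tent5b was chosen after its values were seen, as the gene with the widest range between arrays in the lists around the complex. It had 6.54, 5.83 and 6.72 on arrays 1, 2 and 3, a range of 0.89 log2 units, with array 2 lowest. It was above the reference level on each array, but not above the 99th percentile of the receptors, and with its own spread it was not called above the first level either (limma adjusted p = 0.0689). Tent5a, its relative, had 6.50 on each array and was also called above the first level and not the second. Its mean margin over the second level was 0.10. Nanos3, a germ cell partner of the complex, had 5.88 on each array, a margin of 0.25 with a limma interval of 0.098 to 0.40, and was likewise not above the 99th percentile.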
